A study of Mus musculus with 6 samples.

Results

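Long intergenic noncoding RNA (lincRNA) genes that were measured well in HL-1 cells were compared after knockdown of Malat1. HL-1 is a mouse atrial cardiomyocyte line that can be passaged in culture. The 200 genes described were the rows of the authors' table with the Ensembl biotype lincRNA and a mean of at least 20 normalized counts over the 6 libraries, out of 21269 genes and 1069 lincRNA genes in all. Malat1 itself, Neat1, Gas5, and the genes whose names begin with Snhg were left out, which removed 7 of 207 genes. Seeding took place 24 hours before transfection, which was with 50 nM of either a control locked nucleic acid gapmer (LNA Control, 3 libraries) or a gapmer against Malat1 (LNA Malat1, 3 libraries), and collection followed 48 hours after it. Gapmers are short DNA strands with modified ends, and an RNA bound by one is cut by RNase H. Total RNA was sequenced in bulk. All 6 libraries come from 1 line with 1 control gapmer, and the labels do not say whether the 3 libraries of a group came from separate cultures. The p-values therefore measure only the spread between these libraries, which may be technical.

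Most lincRNAs are transcribed by RNA polymerase II, capped, and spliced, and they have no long open reading frame. Some act where they are made, on genes next to them (H19, Jpx, and Pvt1 lie in such loci), and others are precursors of microRNAs or bind proteins elsewhere in the cell. Many start close to the promoter of a coding gene and are transcribed away from it, an arrangement called head to head or divergent. In the heart, Carmn, the host of the miR-143 and miR-145 cluster, is known for its part in cardiac differentiation.

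Values are given per library in the order of replicates 1, 2, and 3, and are normalized counts, which are read counts divided by 1 factor per library and rounded by the authors. Depth recovered from the rounding was 4512253 to 5592464 reads on genes per library. Malat1 had 5051, 5197, and 4369 normalized counts in LNA Control against 2833, 2792, and 2732 in LNA Malat1. The groups did not overlap, with a difference of -0.80 on the log2 scale (SE 0.07, limma adjusted p = 7.5e-06), and Malat1 was at 57.2% of the control mean. Differences between LNA Control replicates were larger than sampling noise (chi-square per gene 1.77 to 4.18, where noise alone gives about 1), and LNA Control replicates 1 and 3 were furthest apart. Differences between LNA Malat1 replicates were at 0.95 to 1.16 per gene, and replicates 1 and 3, at 0.95, differed by less than the sampling noise. A mean and SD would have to count these replicates as 1 sample, so each library's own value is given instead. The main limma fit counted them as separate libraries. Markers of atrial cardiomyocytes (9 of 11 in the table, none at 0 throughout) summed to 4863 to 5108 normalized counts in LNA Control and to 4644 to 4757 in LNA Malat1. Macrophage and blood markers (2 of 6 in the table) summed to 32 to 36 and 54 to 81, and endothelial markers (3 of 5) to 22 to 31 and 36 to 37. Fibroblast markers (4 of 6) summed to 2928 to 3362 and 2685 to 2757. Ptprc, Adgre1, Cdh5, Kdr, Nppa, and Sln were not among the rows used here. The part of these marker shifts in the lincRNA values was not tested. In bulk RNA, a change in the number of cells of a type and a change in RNA per cell cannot be told apart.

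Sequence was taken for the lincRNA loci in which it bears on what was measured, from RefSeq tables on GRCm38.p6, the same assembly as mm10. Mature microRNAs, written 5′ to 3′, lie within 5 of the genes, and those of Carmn were not analysed here. They are shown because these products, which the libraries did not measure, are cut from the host RNA. Capitals mark the seed, bases 2 to 8. H19 holds both arms of miR-675, Ftx holds miR-374b and miR-421, and 6720427I07Rik holds 3 let-7 members whose main arms share 1 seed.
miR-675-5p (H19): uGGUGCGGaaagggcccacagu
miR-675-3p (H19): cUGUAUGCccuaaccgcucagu
miR-374b-5p (Ftx): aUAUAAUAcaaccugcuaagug
miR-421-5p (Ftx): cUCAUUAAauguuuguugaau
let-7a-5p (6720427I07Rik): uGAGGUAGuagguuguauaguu
let-7d-5p (6720427I07Rik): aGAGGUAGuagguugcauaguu
let-7f-5p (6720427I07Rik): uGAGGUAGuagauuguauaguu
Mir17hg, the host of the miR-17-92 cluster, holds 11 mature sequences with 9 seeds. Within it, miR-17-5p and miR-20a-5p share a seed, as do miR-19a-3p and miR-19b-3p.
miR-17-5p: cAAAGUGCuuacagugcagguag
miR-20a-5p: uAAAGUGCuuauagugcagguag
miR-18a-5p: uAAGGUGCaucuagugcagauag
miR-19a-3p: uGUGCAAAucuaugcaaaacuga
miR-19b-3p: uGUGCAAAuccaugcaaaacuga
miR-92a-3p: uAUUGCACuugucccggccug
2900076A07Rik holds miR-1839.
miR-1839-5p: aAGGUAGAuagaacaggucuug

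The second set of sequences is the DNA between the start of a lincRNA gene and the start of the coding gene that lies head to head with it. These stretches are shown because each lies between the starts of both genes, and the values of both are given further on. Of the called lincRNA genes in such pairs within 500 bases (8 higher and 1 lower), 4 are printed, namely Gm26608, which changed most, and 3 whose coding gene passed the test. Each is written in the direction of the lincRNA gene. Capitals mark matches, on either strand, to 6 motifs that were searched: the TATA box (TATAAA), the CCAAT box, the GC box (GGGCGG), the TEAD element (CATTCC), the AP-1 site (TGANTCA), and the cyclic AMP response element (TGACGTCA). The stretches beside Gm17501 and Gm26608 are the parts held in the promoter table, 77.0% and 78.2% of the distance. Both reach the coding gene but stop short of the start of the lincRNA gene.
Gm17501 to Ccn1 (chr3:145649982-145650235, + strand): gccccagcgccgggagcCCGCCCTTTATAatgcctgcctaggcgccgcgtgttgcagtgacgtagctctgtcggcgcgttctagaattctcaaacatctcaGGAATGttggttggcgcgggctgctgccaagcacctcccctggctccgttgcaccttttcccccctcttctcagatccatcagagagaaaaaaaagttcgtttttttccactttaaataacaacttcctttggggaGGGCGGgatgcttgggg
Gm26608 to Insig1 (chr5:28071162-28071362, - strand): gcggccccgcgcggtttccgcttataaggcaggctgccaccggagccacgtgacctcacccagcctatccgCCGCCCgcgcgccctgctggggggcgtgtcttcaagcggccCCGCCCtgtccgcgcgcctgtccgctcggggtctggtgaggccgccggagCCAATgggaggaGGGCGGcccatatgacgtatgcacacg
C030037D09Rik to Msi2 (chr11:88718514-88718644, + strand): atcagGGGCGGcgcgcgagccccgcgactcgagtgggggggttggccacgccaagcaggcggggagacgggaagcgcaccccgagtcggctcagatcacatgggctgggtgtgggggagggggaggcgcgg
B230317F23Rik to Clcn3 (chr8:60983301-60983436, + strand): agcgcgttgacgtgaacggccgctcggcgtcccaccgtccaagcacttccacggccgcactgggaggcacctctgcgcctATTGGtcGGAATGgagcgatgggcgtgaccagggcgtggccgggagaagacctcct
The GC content was 55.5% beside Gm17501, 72.6% beside Gm26608, 74.8% beside C030037D09Rik, and 67.6% beside B230317F23Rik, where the median of 32851 RefSeq promoters of 300 bases was 52.7%. The table held 7 such stretches beside called lincRNA genes, with more than 50 bases between the starts, of which the 4 above are a part chosen with the results known. The GC box matched in 6 of the 7 and in 35.7% of all promoters, the CCAAT box in 2 and 37.4%, the TEAD element in 2 and 14.7%, the TATA box in 1 and 13.6%, and the AP-1 site in 1 and 7.8%. The cyclic AMP response element (1.8% of all promoters) had no match in the 7. The stretches are shorter than the promoters, which have 300 bases, so these shares are not directly comparable. In the Gm17501 stretch, the matches to the GC box and to the TATA box lie end to end. A match is a string of letters and was not tested as a site.

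More of the lincRNA genes were called higher than lower after Malat1 knockdown. Of the 200, 37 were called higher in LNA Malat1 (18.5%) and 3 lower (1.5%), where a call needed a limma adjusted p of at most 0.05 and a change of at least 1.5-fold. Among all 15650 genes tested, which needed a mean of only 5, 8.0% were called higher and 2.92% lower. Among the 12325 genes of any biotype with a mean of at least 20, 5.51% were called higher and 3.41% lower. Without the fold minimum, 59 lincRNA genes rose and 8 fell, against 14.3% and 14.0% of all genes tested, and 133 did not pass. The 3 LNA Malat1 libraries were all above the 3 LNA Control libraries in 75 genes and all below them in 17 (20.5% and 20.8% of all genes tested). The log2 fold change was positive in 151 genes and negative in 49, from -0.69 to 2.09, with a median of 0.24 beside 0.02 over all genes tested. It lay within 0.25 of 0 in 86 genes. A pseudocount of 1 was added before taking log2, so that the fold changes of low genes are understated. The direction of calls over all genes depended on the scaling, with 1252 higher and 457 lower as deposited and 748 and 718 after quantile normalization. Quantile normalization gave 25 lincRNA genes higher and 5 lower, with a median of 0.09. With LNA Malat1 replicates 1 and 3 counted as 1 sample, 28 lincRNA genes were called higher and 3 lower. Over all 15502 genes tested in that fit, 796 were called higher and 427 lower.

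**Figure D1:**
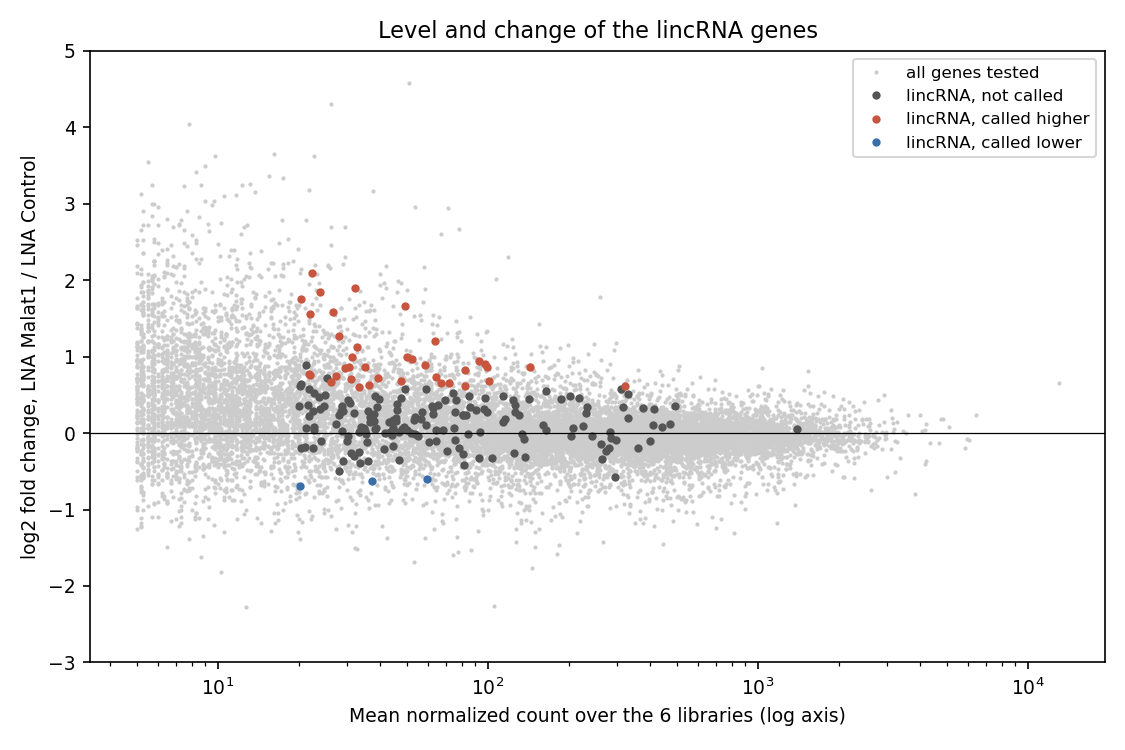
The horizontal axis is the mean normalized count over the 6 libraries on a log axis, and the vertical axis is the log2 fold change of LNA Malat1 over LNA Control. Grey dots are all 15650 genes tested and larger points the 200 lincRNA genes, of which 36 of the 37 called higher lie below a mean of 200 and the 3 called lower lie below 100.

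The share called higher differed between levels of the genes. No lincRNA gene among the 200 was at 0 in any library, and the median gene had a mean of 51.2 normalized counts. In the 98 genes with a mean of 20 to below 50, 22 were called higher (22.4%), against 19.1% of 1026 coding genes of that level. In the 72 genes from 50 to below 200, 14 were called higher (19.4%), against 5.57% of 3195 coding genes. Of the 30 genes at 200 or more, 1 was called higher (3.33%), against 0.863% of 6723 coding genes. So the share of lincRNA genes was near that of coding genes in the lowest range and above it in the middle range. The difference between these shares was not tested. The other long noncoding biotypes, at a mean of at least 20, stood higher still, with 121 of 477 called higher (25.4%), 6 lower (1.26%), and a median log2 fold change of 0.34. Because the limit was set on the mean of both groups, 17 genes had a mean under 20 in LNA Control and passed through LNA Malat1. Of these, 9 were called higher (52.9%). Another 3 genes had a mean under 20 in LNA Malat1, and 1 of these was called lower (33.3%). Of the 180 genes at 20 or more in both groups, 28 were called higher (15.6%) and 2 lower (1.11%). The shares over all genes tested were 8.0% and 2.92%. Just inside the limit were 9530052C20Rik (mean 20.2), and Gm27042 (20.2), and just outside it B230303O12Rik (19.8), Gm48488 (19.7), and Gm47469 (19.7).

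**Figure D2:**
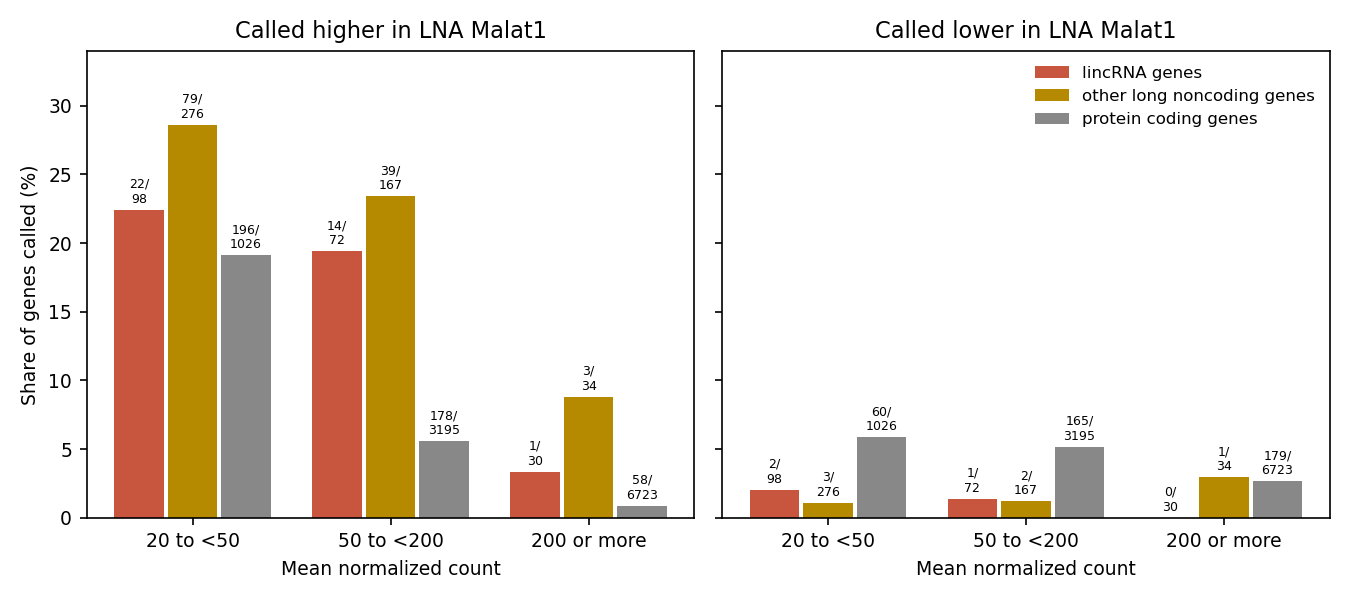
Bars give the share of genes called higher (left) and lower (right) in LNA Malat1 as a percentage, for 3 ranges of the mean normalized count, with the numbers of genes called and tested above each bar. For genes called higher, the lincRNA bar is at 22.4% beside 19.1% for coding genes in the lowest range and at 19.4% beside 5.57% in the middle range.

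Summed over the 200 genes, lincRNA reads took 0.36, 0.379, and 0.407% of the normalized counts in LNA Control, and 0.452, 0.432, and 0.454% in those of LNA Malat1. The groups did not overlap, and the sum was lowest in LNA Control replicate 1. Without that library the median log2 fold change of the 200 genes was 0.16, and 32 were called higher and 3 lower. In GENCODE M21, on the same build, 198 of the 200 genes had the same span. Their median exonic length was 2576 bases in 3 exons, with a GC content of 45.7%, against 4669 bases, 10 exons, and 50.1% for coding genes with a mean of at least 20. The 37 genes called higher had a median of 2886 bases, 4 exons, and 46.3% GC, and the 160 not called 2564 bases, 3 exons, and 45.7%. The biotype did not always mean intergenic, since 68 of the 200 overlapped another gene of the table. Of these, 11 were called higher (16.2%) and 2 lower (2.94%), and of the 132 that overlapped none, 26 (19.7%) and 1 (0.758%). The shares over all genes tested were 8.0% and 2.92%. Whether reads were counted by strand is not given in the sources used here, so reads of overlapping genes on opposite strands may not be told apart.

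Among the 19 genes with a name of their own, 5 rose (26.3%) and 2 fell (10.5%), against 14.3% and 14.0% of all genes tested. A rise of at least 1.5-fold was seen in 1 of the 19 (5.26%, against 8.0% of all genes tested), and none fell by as much. That gene was Trp53cor1, also known as lincRNA-p21, a p53-induced transcript upstream of Cdkn1a (chr17:29057430-29079179, minus strand). Trp53cor1 had 63, 68, and 73 normalized counts in LNA Control against 128, 122, and 134 in LNA Malat1. The groups were far apart, with a log2 fold change of 0.90 (SE 0.10 and limma adjusted p = 4.7e-05). Trp53cor1 was called under all 14 alternative settings, from 0.85 to 0.96. Its nearest coding gene, Cdkn1a, which encodes the cell cycle inhibitor p21, lies head to head with it at 11.8 kb. Cdkn1a had 396, 325, and 349 normalized counts in LNA Control against 479, 449, and 432 in LNA Malat1. The groups did not overlap, and Cdkn1a rose by 0.35 on the log2 scale (SE 0.07, limma adjusted p = 0.0038), less than 1.5-fold. Other coding genes near Trp53cor1 did not follow it. Srsf3, a splicing factor gene at 14.1 kb, was at -0.08 on the log2 scale (limma adjusted p = 0.26). Stk38, a kinase gene at 49.4 kb, fell from 1097, 1044, and 986 to 605, 599, and 582 normalized counts, or -0.81 on the log2 scale (SE 0.05, limma adjusted p = 7.3e-07).

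**Figure D3:**
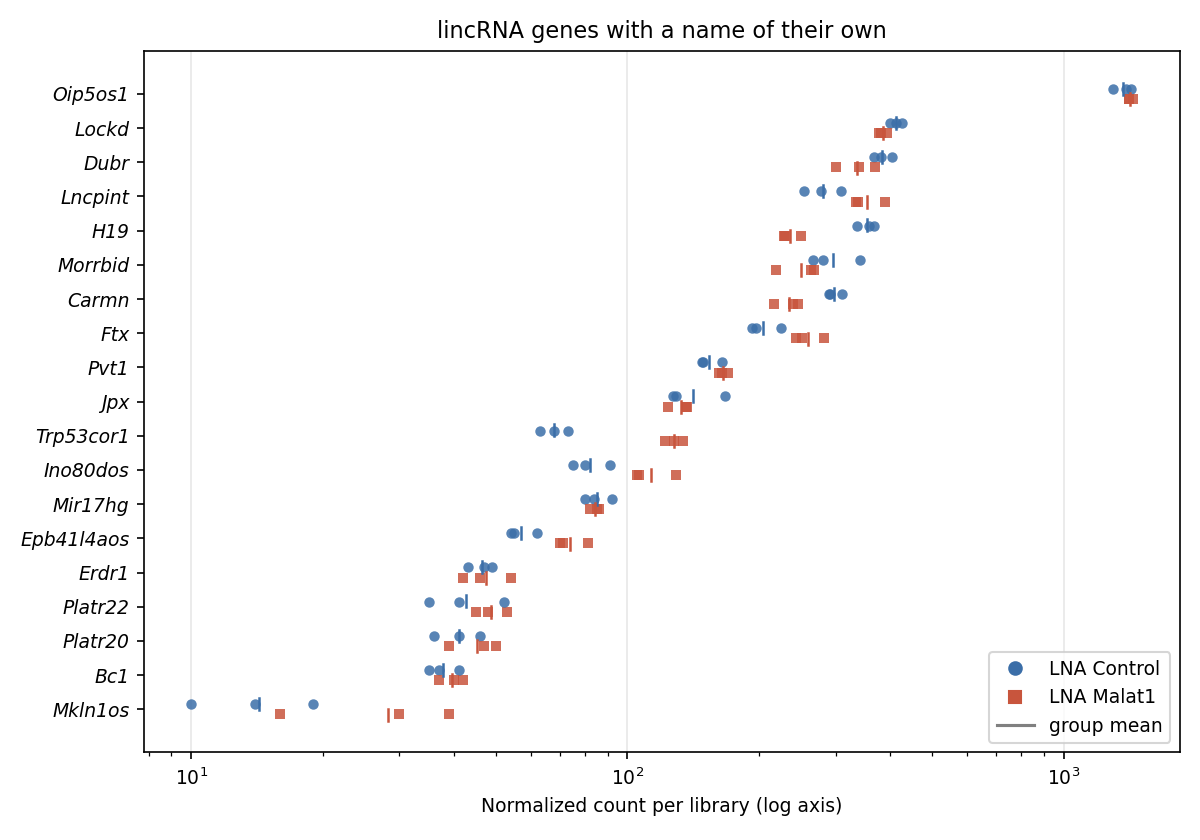
Each row is 1 of the 19 lincRNA genes with a name of its own, ordered by level, and the horizontal axis is the normalized count per library on a log axis. Circles are the 3 LNA Control libraries, squares the 3 LNA Malat1 libraries, and bars the group means. Trp53cor1 is at 63 to 73 in LNA Control and 122 to 134 in LNA Malat1, H19 is lower in LNA Malat1 in every library, and the groups overlap in 11 of the 19.

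H19, the maternally expressed imprinted RNA that carries miR-675 (chr7:142575529-142578143, minus strand), fell. It had 335, 367, and 358 normalized counts in LNA Control against 250, 228, and 230 in LNA Malat1. All 3 LNA Malat1 libraries were below all LNA Control libraries. On the log2 scale it fell by 0.58 (SE 0.06, limma adjusted p = 3.9e-05), just short of 1.5-fold, and the fold minimum was passed under 4 of 14 settings. Mrpl23, a mitochondrial ribosomal protein gene and the nearest coding gene at 34.8 kb, had 26, 33, and 24 and then 23, 32, and 22 normalized counts. These overlapped (log2 fold change -0.11, limma adjusted p = 0.74). Tnnt3, a fast skeletal troponin T gene at 59.5 kb, was called higher at 1.66.

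The other microRNA hosts went different ways. Ftx, which with Jpx lies in the X inactivation center, had 197, 193, and 225 normalized counts in LNA Control against 282, 244, and 251 in LNA Malat1. The groups did not overlap, and Ftx rose by 0.34 (SE 0.08, limma adjusted p = 0.0082). Without LNA Malat1 replicate 1 the adjusted p was 0.056. Carmn had 290, 291, and 311 normalized counts in LNA Control against 240, 217, and 246 in LNA Malat1, again without overlap. It fell by 0.34 (SE 0.07, limma adjusted p = 0.0026). Pcyox1l, a prenylcysteine oxidase gene near Carmn, rose by 0.51 (limma adjusted p = 0.0031). Mir17hg stayed within its spread, with 92, 80, and 84 against 86, 85, and 82 normalized counts (-0.01 on the log2 scale, limma adjusted p = 0.93). The let-7 locus gene 6720427I07Rik had 266, 326, and 328 against 279, 330, and 256, with overlapping groups (-0.09, limma adjusted p = 0.53). For 2900076A07Rik, the host of miR-1839, the log2 fold change was -0.23 (limma adjusted p = 0.2).

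Genes tied to growth, p53, and genome stability made up 8 of the 200. Oip5os1, also known as Cyrano and the gene of highest level among the 200, had 1299, 1390, and 1423 normalized counts in LNA Control against 1410, 1412, and 1439 in LNA Malat1. These overlapped (log2 fold change 0.05, limma adjusted p = 0.50). Lncpint, a transcript induced by p53, had 254, 277, and 309 in LNA Control against 337, 334, and 390 in LNA Malat1. The groups did not overlap, and Lncpint rose by 0.34 (SE 0.08, limma adjusted p = 0.009), although at 0.058 without LNA Malat1 replicate 3. Pvt1, which lies beside Myc, had 149, 165, and 148 against 170, 162, and 165 (0.11, limma adjusted p = 0.34), and Myc itself, at 47.6 kb, was at 0.13 (limma adjusted p = 0.51). Neither passed the test. 2900097C17Rik, the mouse counterpart of NORAD, had 207, 222, and 192 against 198, 213, and 192 normalized counts (-0.04, limma adjusted p = 0.73). Lockd, which lies downstream of the cell cycle inhibitor gene Cdkn1b, was lower in every LNA Malat1 library, at 400, 412, and 427 against 394, 378, and 382, but did not pass (-0.10, limma adjusted p = 0.18). Cdkn1b, at 3.6 kb, fell by 0.16 (limma adjusted p = 0.031), less than 1.5-fold, and its adjusted p was above 0.05 under 8 of 14 settings. Morrbid, a regulator of Bcl2l11 in myeloid cells, had 266, 281, and 342 against 263, 219, and 267, with overlap at the lower end (-0.24, limma adjusted p = 0.085). Bcl2l11, at 15.8 kb, was at 0.14 (limma adjusted p = 0.25).

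Transcripts named for the coding gene opposite them were higher or did not pass. Ino80dos had 75, 80, and 91 normalized counts in LNA Control against 105, 106, and 129 in LNA Malat1. It rose by 0.46 (SE 0.12, limma adjusted p = 0.011), and Ino80d, which encodes a subunit of a chromatin remodeler and overlaps it on the other strand, rose by 0.20 (limma adjusted p = 0.024). Epb41l4aos had 62, 55, and 54 against 81, 71, and 70, and rose by 0.37 (limma adjusted p = 0.045), with an adjusted p above 0.05 under 8 of 14 settings. Epb41l4a, the coding gene next to it, fell by 0.52 (limma adjusted p = 0.0028). Mkln1os was low and varied between libraries, at 10, 14, and 19 in LNA Control against 16, 39, and 30 in LNA Malat1. Its groups overlapped (0.89, limma adjusted p = 0.061), and Mkln1 was at -0.09 (limma adjusted p = 0.42). Of the remaining named genes, Dubr was at -0.19 (limma adjusted p = 0.072), Jpx -0.08, Erdr1 0.02, Bc1 0.07, Platr20 0.14, and Platr22 0.20. None of these 6 passed.

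Lists of long noncoding RNAs grouped by role, of any biotype, held 39 distinct genes that were tested, of which 10 rose (25.6%) and 3 fell (7.69%), against 14.3% and 14.0% of all genes tested. Of the 39, 5 were called higher (12.8%) and 1 lower (2.56%), against 8.0% and 2.92%. Among these 5 is Platr14, at 3, 1, and 1 against 6, 10, and 10 normalized counts. It met the filter on the mean only through LNA Malat1. Of 5 imprinted transcripts tested, H19 and Peg13 fell and none rose, with a median log2 fold change of -0.28. Of 4 from the X chromosome, Ftx rose and none fell (median 0.17). Of 13 genes on the list of microRNA hosts, 5 rose and 2 fell (median 0.02). Mirt1 was called, at 30, 25, and 19 against 90, 99, and 88 normalized counts. So was Mir22hg, at 48, 39, and 41 against 68, 65, and 70. Neither has the lincRNA biotype, and neither was searched for a mature microRNA, so their listing as hosts was not checked. No mature microRNA was found within Lncpint, which is also on the list and rose. Of 9 growth, p53, and genome stability transcripts, 4 rose and none fell (median 0.11). Of 7 cardiovascular transcripts, Mirt1 rose, and H19 and Carmn fell (median -0.21). Of 9 developmental and pluripotency transcripts, Hottip (limma adjusted p = 0.049) and Platr14 (0.0093) rose from fewer than 10 normalized counts in each LNA Control library, and none fell (median 0.20). The median of all genes tested was 0.02.

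Of the 181 genes without a name of their own, 36 were called higher (19.9%) and 3 lower (1.66%), against 8.0% and 2.92% of all genes tested. Of the 8 with the largest called rises, 7 (all but Gm36283) had a mean under 20 normalized counts in LNA Control and met the limit on the mean only through LNA Malat1, where they were high. 2310001H17Rik (chr6:129208412-129238725) had 7, 11, and 6 normalized counts in LNA Control against 43, 36, and 31 in LNA Malat1. Each LNA Malat1 library was above 30 and each LNA Control library at or below 11, and the log2 change was 2.09 (SE 0.27, limma adjusted p = 0.00013). Gm47113 (chr9:121869496-121879936) had 11, 15, and 13 against 61, 45, and 48, or 1.90 (SE 0.21, limma adjusted p = 3.9e-05). Gm15328 had 11, 16, and 5 against 35, 35, and 42, or 1.84 (SE 0.33, limma adjusted p = 0.0014). In all 3, each LNA Malat1 library was above 30 and each LNA Control library at or below 16. Gm26608 (chr5:28019465-28071105) had 9, 8, and 9 against 28, 27, and 41, or 1.75 (SE 0.25, limma adjusted p = 0.0003). Gm36283 (chr10:108417251-108453297) had 29, 18, and 23 against 73, 67, and 85, or 1.66 (SE 0.19, limma adjusted p = 4.9e-05). Gm5082 was at 1.58, 1700003M07Rik at 1.56, and Gm36199 at 1.27. These 8 genes were picked among called rises without overlap between groups, so their lack of overlap is by choice. Each was among the 19 of 37 genes called higher that were called under all 14 settings.

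At moderate levels, Gm20045, Gm17382, and Gm32200 had groups that lay well apart. Gm20045 had 102, 94, and 110 normalized counts in LNA Control against 192, 168, and 197 in LNA Malat1 (log2 change 0.86, SE 0.09, limma adjusted p = 3.5e-05). Gm17382 had 67, 64, and 79 against 135, 115, and 136 (0.87, SE 0.12, limma adjusted p = 0.00015). Gm32200 had 43, 36, and 35 against 86, 94, and 87 (1.21, SE 0.14, limma adjusted p = 3.9e-05). These 3 were picked among genes called higher after their values were seen, so their lack of overlap is by choice. Gm28187, the called gene of highest level, was different, since LNA Control replicate 1 lay apart at 181 beside 275 and 313, against 432, 354, and 370 in LNA Malat1. It rose by 0.62 (SE 0.15, limma adjusted p = 0.0097), and by 0.39 without that library. E430024I08Rik had 34, 79, and 85 against 118, 110, and 129, and its log2 fold change was 0.94 with and 0.53 without LNA Control replicate 1. Neither was called without that library.

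The 3 genes called lower were near the limits of the test. 9530052C20Rik had 27, 23, and 25 normalized counts in LNA Control against 12, 15, and 19 in LNA Malat1 (log2 change -0.69, SE 0.24, limma adjusted p = 0.048). Gm30835 had 42, 49, and 45 against 32, 25, and 30 (-0.63, SE 0.17, limma adjusted p = 0.016). 3222401L13Rik had 66, 76, and 74 against 45, 46, and 50 (-0.60, SE 0.13, limma adjusted p = 0.0044). The groups did not overlap in any of the 3, but their calls were lost under 10, 3, and 5 of 14 settings. Among the unnamed genes of highest level, Gm20342 rose by 0.32 (346, 355, and 402 against 483, 439, and 453, limma adjusted p = 0.0038). Its span lies within that of Ino80dos on the same strand, and whether the rises of both are separate was not tested. Gm37494, 5033428I22Rik, AU020206, and Gm32856 had log2 fold changes of 0.35, 0.12, 0.08, and 0.10 and did not pass the test.

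**Figure D4:**
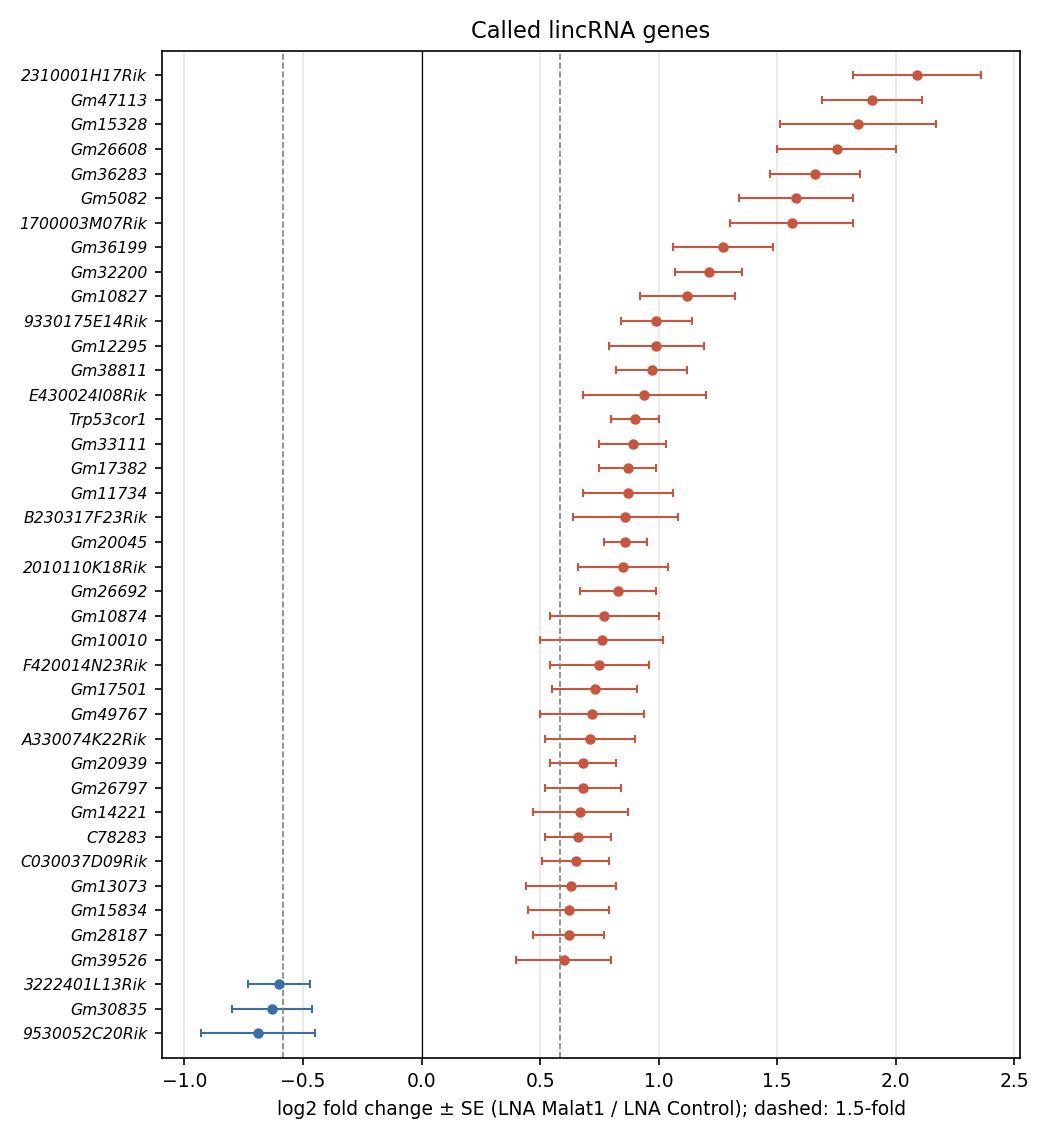
Points are the log2 fold changes of the 40 called lincRNA genes, 37 higher and 3 lower, with bars of 1 SE from limma, and dashed lines mark 1.5-fold. 2310001H17Rik is at 2.09, Trp53cor1 at 0.90, and the genes called lower lie between -0.69 and -0.60.

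Coding genes near the lincRNA genes were called at shares near those of coding genes at large. A coding gene that was tested lay within 100 kb of 173 of the 200 lincRNA genes, and the 559 pairs held 539 coding genes. Of these, 26 were called higher (4.82%) and 12 lower (2.23%), against 6.0% and 3.48% of all 12320 coding genes tested. Their median log2 fold change was -0.02, as for all coding genes. Quantile normalization gave 21 higher and 18 lower. The nearest coding gene lay at a median of 5.7 kb, head to head in 62 pairs, on the same strand in 76, tail to tail in 19, and overlapping in 16. Across these 173 nearest pairs, Pearson's r of the log2 fold changes was -0.03 and Spearman's rho 0.07, as a description over pairs that share the same 6 libraries. Part of the pairs gave values of either sign, with r = -0.31 over the 33 nearest pairs of lincRNA genes called higher and r = 0.22 over the 85 pairs that lie within 5 kb of each other without overlapping. The 2 genes of a nearest pair had the same sign in 83 pairs and opposite signs in 90. Both were called in the same direction in 3 pairs and in opposite directions in 2.

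**Figure D5:**
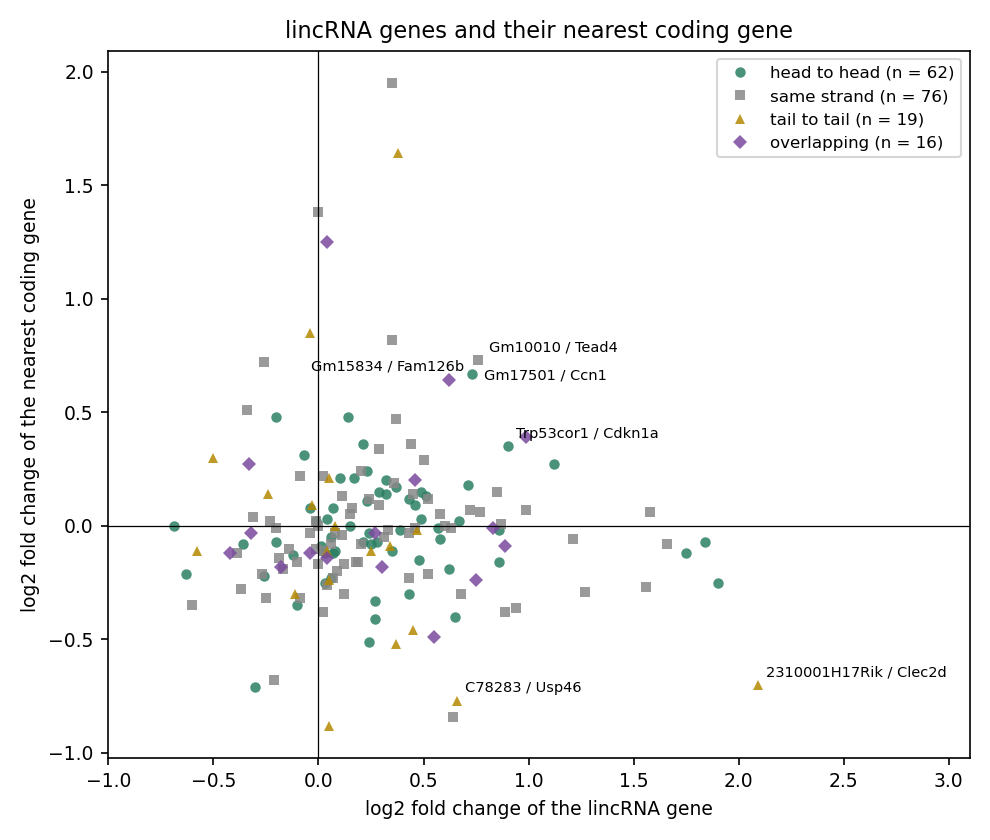
Each point is 1 of 173 lincRNA genes and its nearest coding gene within 100 kb, with the log2 fold change of the lincRNA gene on the horizontal axis and of the coding gene on the vertical axis, and the shape gives their arrangement. Over all the points r was -0.03, and the pairs in which both genes were called are labelled together with Trp53cor1 and Cdkn1a.

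The 3 pairs called in the same direction were Gm17501 with Ccn1, Gm15834 with Fam126b, and Gm10010 with Tead4. Gm17501 had 40, 50, and 53 normalized counts in LNA Control against 101, 80, and 61 in LNA Malat1 (log2 change 0.73, SE 0.18, limma adjusted p = 0.01). Ccn1, a secreted matricellular protein gene that starts 330 bases away and points the other way, had 193, 192, and 218 against 327, 310, and 325 (0.67, SE 0.07, limma adjusted p = 1.9e-05). Both rose without overlap, although Gm17501 was not called without LNA Malat1 replicate 1 (limma adjusted p = 0.068). Their shared stretch is the first of the 4 printed. Gm15834 had 49, 74, and 71 against 118, 88, and 92 (0.62, limma adjusted p = 0.014), and Fam126b, which overlaps it on the other strand, 110, 180, and 231 against 244, 280, and 256 (0.64, limma adjusted p = 0.024). In both, LNA Control replicate 1 was the lowest library, and without it neither was called. Gm10010 had 21, 11, and 17 against 30, 23, and 30 (0.76, limma adjusted p = 0.047), and Tead4, a transcription factor gene of the Hippo pathway at 23.7 kb, 26, 34, and 24 against 57, 37, and 48 (0.73, limma adjusted p = 0.019). These calls were lost under 8 and 4 of 14 settings.

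In 2 nearest pairs the genes were called in opposite directions. C78283 had 46, 56, and 65 normalized counts in LNA Control against 81, 93, and 90 in LNA Malat1 (0.66, limma adjusted p = 0.0041). Usp46, a deubiquitinase gene at 50.1 kb, had 584, 589, and 570 against 330, 331, and 360 (-0.77, SE 0.06, limma adjusted p = 1.3e-06). Both were without overlap, and Usp46 was called under all 14 settings. Clec2d, a C-type lectin gene 21.9 kb from 2310001H17Rik, had 20, 23, and 19 against 12, 12, and 13 (-0.70, limma adjusted p = 0.046), a call lost under 10 of 14 settings.

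Head to head neighbours within 500 bases of each other numbered 30 pairs, with r = 0.20 over the pairs. Of the lincRNA genes in them 8 were called higher (26.7%) and 1 lower (3.33%), against 17.1% and 1.18% of the other 170 lincRNA genes and 8.0% and 2.92% of all genes tested. Of the coding genes, 1 was called higher and 1 lower (3.33% each), against 6.0% and 3.48% of all coding genes tested. The difference between these shares was not tested. The same sign was seen in 16 pairs and opposite signs in 14. Gm26608 rose more than 3-fold, while Insig1, a regulator of sterol synthesis whose gene starts 257 bases away, had 693, 760, and 646 against 639, 658, and 634 normalized counts. The Insig1 values overlapped (-0.12, limma adjusted p = 0.18). C030037D09Rik had 55, 48, and 53 against 75, 76, and 97 and rose by 0.65 (SE 0.14, limma adjusted p = 0.0039). Msi2, an RNA-binding protein gene 131 bases from it, went the other way, from 804, 798, and 764 to 599, 610, and 584, or -0.40 (SE 0.05, limma adjusted p = 9.7e-05). B230317F23Rik had 27, 18, and 29 against 43, 38, and 55 (0.86, limma adjusted p = 0.012), and Clcn3, a chloride channel family gene 136 bases away, was at -0.16 (limma adjusted p = 0.047, and above 0.05 under 8 of 14 settings). Gm10827 rose by 1.12 with Ccdc28a, 54 bases away, at 0.27 (limma adjusted p = 0.25). For 9530052C20Rik, called lower, the kinase gene Pkn2 at 490 bases was at -0.00 (limma adjusted p = 0.97). The coding gene called lower was Klhl29, at -0.71 (SE 0.07, limma adjusted p = 1.2e-05), beside 2810032G03Rik, which had a log2 fold change of -0.30.

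The next 7 lincRNA genes were picked after their values were seen, since their nearest coding gene encodes a transcription factor or coactivator with a known part in heart development, and they are not a complete set. The coding gene passed the test lower beside 3 of them, namely Tbx5 beside Gm43050 and Hand2, counted for both Gm34030 and 5033428I22Rik. It passed higher beside 1 and did not pass beside the other 3. Of all coding genes tested, 17.4% passed lower and 13.1% higher, and 22.8% of those with a mean of at least 200 passed lower. Gm43050 starts 0.6 kb from Tbx5, head to head, and had 139, 139, and 129 normalized counts in LNA Control against 121, 98, and 122 in LNA Malat1. Its groups did not overlap, but it did not pass (-0.26, limma adjusted p = 0.076). Tbx5 had 544, 446, and 481 against 427, 386, and 444, also without overlap, and fell by 0.22 (SE 0.08, limma adjusted p = 0.045), with an adjusted p above 0.05 under 8 of 14 settings. Gm17382, called higher at 0.87, lies 15.3 kb from Nkx2-5, which had 207, 201, and 194 normalized counts in LNA Control against 211, 187, and 207 in LNA Malat1. The Nkx2-5 values overlapped (0.01, limma adjusted p = 0.96). Gm12295 had 22, 18, and 22 against 50, 42, and 35 and rose by 0.99 (SE 0.20, limma adjusted p = 0.003). Myocd, the coactivator myocardin, at 7.7 kb from Gm12295, had 958, 840, and 847 against 947, 864, and 971, with overlap (0.07, limma adjusted p = 0.43). Hand2 has Gm34030 at 7.1 kb and 5033428I22Rik at 7.5 kb. Gm34030 had 70, 60, and 70 against 65, 63, and 57, and 5033428I22Rik had 449, 428, and 484 against 488, 480, and 511. Both overlapped (-0.11, limma adjusted p = 0.56, and 0.12, limma adjusted p = 0.15). Hand2 had 847, 874, and 784 against 682, 677, and 668 and fell by 0.30 (SE 0.05, limma adjusted p = 0.0013). Irx5, which is 18.4 kb from Gm21817, had 76, 78, and 86 against 109, 111, and 115 and rose by 0.48 (SE 0.10, limma adjusted p = 0.0036), and Gm21817 had overlapping groups (-0.20, limma adjusted p = 0.65). Meis2, 1.4 kb from G630016G05Rik, was at -0.07 (limma adjusted p = 0.47), while G630016G05Rik was higher in every LNA Malat1 library, at 67, 70, and 67 against 78, 80, and 91, without passing (0.28, limma adjusted p = 0.085).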

How the data were processed

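By the paper's methods and the submitters' processing notes, the authors trimmed single-end reads with Trimmomatic 0.39, aligned them to mm10 with STAR 2.7.7a and an Ensembl annotation, counted reads on exons with featureCounts 1.6.5, and tested genes with DESeq2 1.30.0. The deposited values are a score, not raw counts: counts normalized by 1 factor per library and rounded.

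The test was limma (3.58.1, R 4.3.3) on log2(value + 1) of 15650 genes (mean 5 or more), using lmFit and eBayes (trend on), two-sided, and p-values were adjusted by Benjamini-Hochberg over all of them. Tests for raw counts were not used for the main results. Only the voom alternative took read counts, which were recovered from the rounding. Exact permutation of 3 against 3 libraries reaches no p below 0.1. Scripts were tested on simulated data.

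The 200 genes, the role lists, and the rule for named genes (Malat1, lincRNA genes with a name of their own, the 8 largest called rises and falls, the 5 of highest level, their nearest coding genes, and list members) were set with earlier results of these data known. Other genes were named after their values were seen. A coding gene is near when the spans lie within 100 kb, and "called" needs 1.5-fold. Of the 200 genes, 120 matched the RefSeq promoter table. Alternatives were pseudocounts of 0.1 and 5, 2 scalings, filters, folds, limits, distances, a replicate block, and leaving out each library. Library totals set equal, voom on recovered reads, and LNA Malat1 replicates 1 and 3 as 1 sample were chosen after seeing the data.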

Additional observations from a re-analysis of the deposited data

How the results depend on the processing

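Of the 37 lincRNA genes called higher, 19 were called under all 14 alternative settings, and of the 3 called lower, 0. Median-of-ratios scaling, voom on recovered reads, and a pseudocount of 0.1 shared 39, 40, and 38 of the 40 calls. Genes called higher numbered 15 at a filter of 50, 59 with no fold minimum, 10 at 2-fold, 78 (of 338) with the lincRNA limit at 10, 15 (of 102) with it at 50, and 28 to 40 with 1 library left out. Genes called lower numbered 0 with a pseudocount of 5, 5 after quantile normalization, 1 at a filter of 50, 1 with library totals set equal, 8 with no fold minimum, 0 at 2-fold, 1 with the limit at 50, 1 among genes overlapping no other, and 0 to 3 with 1 library left out, being 0 without LNA Control replicate 2 and 1 without LNA Control replicate 3 or LNA Malat1 replicate 2. For coding genes nearby, calls higher were 9 at a filter of 50, 56 with no fold minimum, 14 at 2-fold, 16 within 50 kb, 63 within 250 kb, and 8 for the nearest, and calls lower were 88 with no fold minimum, 2 at 2-fold, 27 within 250 kb, and 6 for the nearest. Over all genes tested, calls higher were 748 after quantile normalization, 317 at a filter of 50, 796 with LNA Malat1 replicates 1 and 3 as 1 sample, 2231 with no fold minimum, 742 at 2-fold, and 769 to 1621 with 1 library left out (769 without LNA Malat1 replicate 1, 796 without replicate 3), and calls lower were 718 after quantile normalization, 2195 with no fold minimum, and 99 at 2-fold. Filters, folds, limits, and distances change the genes counted by construction, and the cause of the other shifts was not tested. Of 2786 values of 179 single genes under alternatives, 2550 stayed on their side of the limit on the adjusted p, 202 lost it, 34 gained it, and 0 changed direction past it.

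Deviations from the group means correlated at 0.086, 0.182, and 0.083 between samples of the same replicate number. Between different numbers the correlations were -0.189 to 0.046, so each sample correlated best with its own number. Whether the numbers pair the samples was not tested, and the main fit did not use them. With the replicate block, 38 lincRNA genes were called higher and 2 lower, 39 of 40 shared, and Mkln1os (adjusted p = 0.024), Morrbid (0.034), and Dubr (0.04) passed. At 20 normalized counts, a call needed close replicates, so a gene that did not pass is not shown to be unchanged.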

Other observations

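Coding genes that were called within 100 kb of a lincRNA gene but were not its nearest neighbour covered several roles. Them5, a thioesterase gene near 1700040D17Rik, had 7, 5, and 9 normalized counts in LNA Control against 33, 37, and 31 in LNA Malat1 (log2 change 2.14, limma adjusted p = 9.9e-05), while 1700040D17Rik was at 0.29. Star, the steroidogenic cholesterol transfer protein gene, rose from 45, 40, and 55 to 92, 100, and 84 (0.97, limma adjusted p = 0.00033), 36.9 kb from Gm17484 at 0.55. Vgf, a neuropeptide precursor gene, rose from 1, 2, and 3 to 11, 9, and 14 (2.08, limma adjusted p = 0.0031). Ddah1, which encodes an enzyme that breaks down asymmetric dimethylarginine, fell from 86, 94, and 100 to 39, 38, and 48 (-1.15, limma adjusted p = 6.5e-05) on the other side of Gm17501 from Ccn1. Tia1, an RNA-binding protein gene 50.0 kb from 2310040G24Rik, fell from 420, 434, and 470 to 206, 237, and 251 (-0.93, limma adjusted p = 3.9e-06), while 2310040G24Rik was at 0.05. All 5 were called under all 14 settings. They were picked from called genes, so their lack of overlap is partly by choice. Vgf was below 5 in each LNA Control library and met the filter on the mean only through LNA Malat1.

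Near Gm43086, which had overlapping groups and did not pass (log2 fold change 0.64, limma adjusted p = 0.12), chemokine genes went different ways. Cxcl1, the most abundant of the 4 tested, had 55, 50, and 53 against 84, 75, and 77 and rose by 0.57 (limma adjusted p = 0.0042), less than 1.5-fold. Cxcl2 had 3, 2, and 3 against 10, 9, and 10 (1.55, limma adjusted p = 0.009). Cxcl3 had 29, 25, and 33 against 20, 10, and 19 (-0.84, limma adjusted p = 0.037), and Pf4 did not pass (-0.73, limma adjusted p = 0.31). The calls of Cxcl2 and Cxcl3 were lost under 1 and 4 of 14 settings, and Cxcl1 passed the fold minimum under 3.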
